A study of Mus musculus with 123 samples.

Results

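The genes described here are 10 imprinted genes that act on growth (Igf2, H19, Igf2r, Dlk1, Meg3, Cdkn1c, Peg3, Mest, Grb10 and Plagl1), taken by name from the 23337 genes of a count table, and all 10 had a row. They were followed in single cardiomyocytes (CMs) from the mouse heart at embryonic day 9.5 (E9.5), E12.5 and postnatal day 1 (P1). The study captured these cells to ask how varied CMs are while the heart grows and how they mature around birth. All cells came from hearts of aMHC-GFP mice, in which the promoter of the alpha myosin heavy chain gene drives green fluorescent protein, and αMHC+ cells were captured on Fluidigm C1 chips. The labels name no treatment or mutation in any group. According to the paper, E9.5 and E12.5 hearts were digested with collagenase, and P1 hearts for longer with Liberase and then strained. Age and digestion therefore cannot be told apart in comparisons with P1. The labels give neither animals nor litters nor chips. Each time point therefore counts as 1 sample, and no test between time points was possible.

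Only cells in which 2000 or more genes had a count were used, namely all 42 E9.5 cells, all 29 E12.5 cells and 41 of the 52 P1 cells. Depth differed between time points: the cells held 268301 to 6351742 counts at E9.5 (median 2476022), 148258 to 7711355 at E12.5 (median 493238) and 69522 to 327360 at P1 (median 149078). The cell titles carry prefixes, used here as naming sets: C (14 cells) and N530 (28 cells) at E9.5, C (20 cells), N523 (8 cells) and E12-5b (1 cell) at E12.5, and C alone (41 cells) at P1. No P1 cell reached the depth of sets N530 and N523, whereas the P1 cells overlapped in depth with set C of E12.5. Of 8 CM genes (Tnnt2, Actc1, Myh6, Myh7, Ttn, Tnni1, Tnni3 and Nppa), at least 4 reached 100 CPM in 108 of the 112 kept cells. The other 4 cells, 3 at E9.5 in set C and 1 at P1, are called cells lacking CM genes, and for the members their part is given beside the ratios. No pair of the 123 deposited columns was identical.

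Imprinted genes are read from the copy of 1 parent, and many of them act on growth before and after birth, in broad terms with paternally expressed genes promoting it and maternally expressed genes restraining it. IGF2, read from the paternal copy, binds the IGF1 and insulin receptors and drives fetal growth, whereas IGF2R, read from the maternal copy in the mouse, carries IGF2 to lysosomes for breakdown, and the adaptor GRB10 damps signalling from the insulin and IGF1 receptors. Several of these genes are known to be lowered together in many organs after birth. Gene counts do not tell the maternal from the paternal copy, so imprinting itself was not measured.

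The mature sequences of the microRNAs (miRNAs) within 3 members are shown first, because H19 is the precursor of a microRNA and Igf2 and Mest each host one. They are from RefSeq (GRCm38.p6), written 5′ to 3′, with the seed (bases 2 to 8), which sets most target pairing, in capitals. The first pair lies in an exon of H19 (minus strand, chr7:142577078-142577099 and chr7:142577112-142577133), the second in an intron of Igf2 (minus strand, chr7:142654932-142654952 and chr7:142654968-142654989) and the third in an intron of Mest (plus strand, chr6:30741354-30741375 and chr6:30741314-30741336).
mmu-miR-675-3p: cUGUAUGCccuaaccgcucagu
mmu-miR-675-5p: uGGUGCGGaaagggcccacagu
mmu-miR-483-3p: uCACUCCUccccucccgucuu
mmu-miR-483-5p: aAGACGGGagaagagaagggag
mmu-miR-335-3p: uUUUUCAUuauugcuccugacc
mmu-miR-335-5p: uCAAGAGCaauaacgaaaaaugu
No seed was shared between the hosts. The libraries hold amplified cDNA of long RNA, and the counts below are those of the host genes. The hairpin rows of the same table held 0 counts for Mir675 in all kept cells, 23 counts in 1 E9.5 cell for Mir483 and 152 counts in 4 E9.5 cells for Mir335, and these rows were not used further.

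In the GENCODE M21 annotation of GRCm38, H19 (chr7:142575529-142578143) and Igf2 (chr7:142650766-142666816) lie on the minus strand, 72.6 kb apart, and Cdkn1c (chr7:143458339-143461050, minus strand) lies 880 kb from H19, on the far side of Igf2. Dlk1 (chr12:109452823-109463336) and Meg3 (chr12:109541001-109571726) are neighbours on the plus strand with 77.7 kb between them. The remaining members lie at other loci: Peg3 (chr7:6703892-6730431, minus strand), Mest (chr6:30723547-30748465, plus strand), Igf2r (chr17:12682406-12769664, minus strand), Grb10 (chr11:11930508-12038683, minus strand) and Plagl1 (chr10:13060504-13131694, plus strand). Igf2r overlaps the antisense RNA Airn over 28354 bases and Mest overlaps Copg2 over 912 bases. The library kit does not mark strand, so reads from these overlaps cannot be assigned to 1 strand.

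Of the 9 members at 10 CPM or more at either time point, 8 were at least 2-fold lower in mean CPM at P1 than at E9.5, where 42.4% of all genes tested were, and 0 were higher. Against E12.5, 7 of 9 were at least 2-fold lower at P1, where 34.3% of all genes were. CPM is a gene's share of its cell's counts scaled to 1000000, averaged over cells, and ratios between time points are given on the log2 scale. The median log2 ratio over the 9 members was -1.99 for P1 against E9.5 and -1.53 for P1 against E12.5, beside -0.64 and -0.37 for all genes tested. Over the combinations of naming sets, 6 of the 9 were at least 2-fold lower than E9.5 in every combination (all genes, 27.8%) and 4 of the 9 at least 2-fold lower than E12.5 (all genes, 17.3%). With edgeR's TMM factors the ratio of every gene shifted by 0.17 (P1 against E9.5) and by -0.26 (P1 against E12.5), and the counts of 8 and 7 members did not change.

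The members parted in how far they were lower. At least 4-fold lower at P1 than at both embryonic time points were 3 of 9, Meg3, Cdkn1c and Peg3, where 14.6% of all 6658 genes at 10 CPM or more at both embryonic time points were. Without the cells lacking CM genes H19 joined them, which makes 4 of 9 (all genes, 15.2%). Within 2-fold of both embryonic time points was 1 of 9, Grb10, where 34.9% of all genes were. The plot of log2 ratios shows these distances by member.

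**Figure D1:**
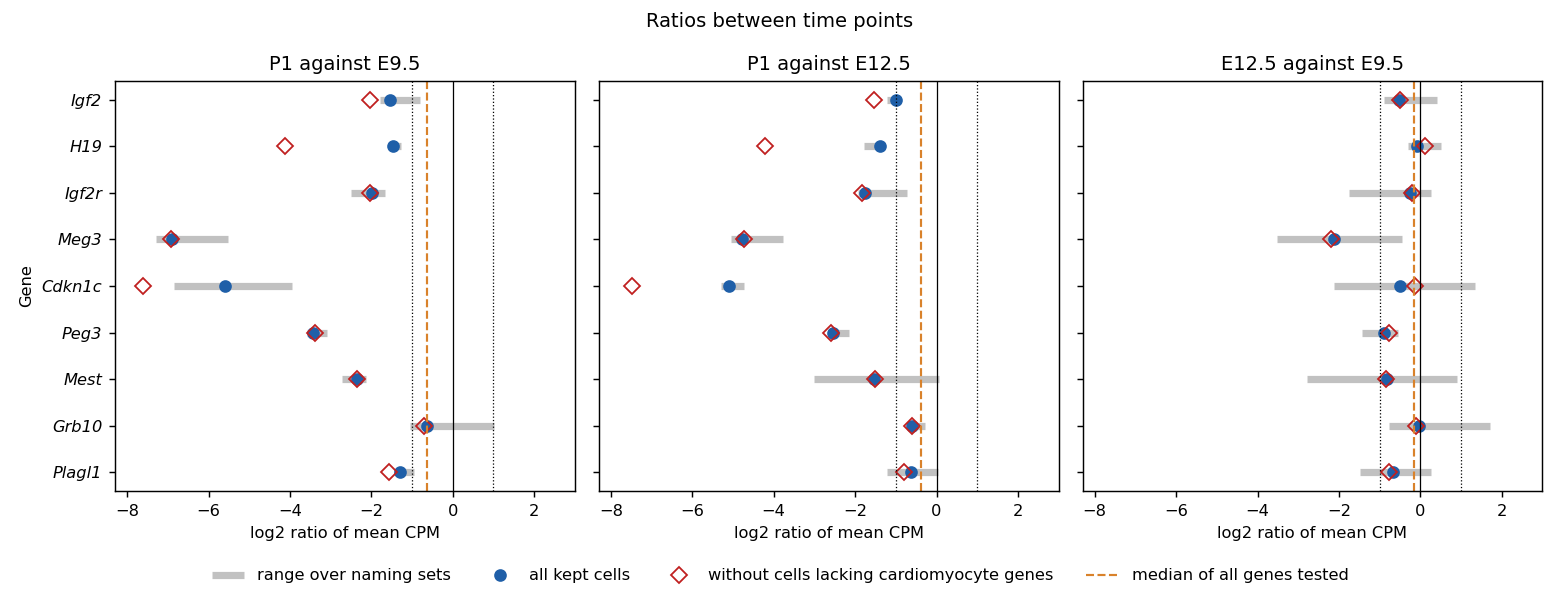
Log2 ratio of mean CPM between time points for the 9 members with 10 CPM or more, from all kept cells (filled circles) and without the 4 cells lacking CM genes (open diamonds). Grey bars span the combinations of naming sets of 6 or more cells, dotted lines mark 2-fold and the dashed line the median of all genes tested. H19 moved from -1.47 to -4.11 (P1 against E9.5) once those cells were left out, whereas Grb10 stayed within 2-fold in both and its bar reached from -1.06 to 1.01.

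Igf2, the fetal growth factor, was found (1 count or more) in 42 of 42 cells at E9.5 and 29 of 29 at E12.5, and in 33 of 41 at P1 (80.5%, exact 95% binomial interval 65.1% to 91.2%). Its level at E9.5 ran from 28.1 to 3018 CPM with a median of 467, at E12.5 from 22.3 to 2787 with a median of 451, and at P1 from 0 to 3899 with a median of 56.2. The ranges overlapped at all 3 time points, while the P1 median lay below both embryonic medians. Mean CPM was 853 ± 833 (SD over cells, n = 42), 591 ± 544 (n = 29) and 294 ± 641 (n = 41). The P1 cell lacking CM genes carried the 3899 CPM, and without it the P1 cells reached 1004 CPM at most, with a mean of 204. Against E9.5 the P1 log2 ratio was -1.54 with all cells and -2.03 without the cells lacking CM genes (naming sets, -1.80 to -0.81). Against E12.5 the P1 ratios were -1.01 and -1.53 (naming sets, -1.22 to -0.91). With all cells the ratio to E12.5 lies at the 2-fold line. After thinning to 100000 counts, which left out 3 shallower P1 cells, Igf2 was found in 76.3% of 38 P1 cells. Igf2 is transcribed inside the longer annotated gene Gm49394 and across from Igf2os, and reads of that span may be shared.

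H19, the maternally expressed long noncoding RNA next to Igf2, was found in 42 of 42 cells, 27 of 29 and 16 of 41 (39.02%, 24.2% to 55.5%). E9.5 cells ran from 3.40 to 5029 CPM around a median of 531, E12.5 cells from 0 to 3577 around a median of 784 and P1 cells from 0 to 10629 with a median of 0. Most P1 cells held no count, and 1 P1 cell stood far above every other cell of the series. That cell held 86.4% of the summed P1 level and lacked CM genes. The next P1 cell had 524 CPM. Mean CPM at P1 was 300 ± 1656 (n = 41) with it and 41.7 ± 95.9 (n = 40) without it, against 831 ± 1049 at E9.5 and 780 ± 697 at E12.5. The log2 ratio was -1.47 against E9.5 and -1.38 against E12.5 with all cells, and -4.11 and -4.23 without the cells lacking CM genes (17.3-fold and 18.7-fold lower). With cells thinned to 100000 counts, H19 was still found in 100% of E9.5, 89.7% of E12.5 and 36.8% of the 38 P1 cells deep enough.

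The neighbours Igf2 and H19 were also read cell by cell. Both were found in 42 of 42 E9.5 cells and 27 of 29 at E12.5, but in 12 of 41 at P1. Of the other P1 cells, 21 held Igf2 without H19, 4 held H19 without Igf2 and 4 held neither. At E12.5, 2 cells held Igf2 without H19 and 0 the reverse. H19 stood above Igf2 in CPM in 21 of 42, 22 of 29 and 8 of 41 cells. CPM does not take gene length into account, so this order does not say which gene had more transcripts. Spearman's rho of their CPM across cells, given as a description, was 0.51 in E9.5 set C (n = 14), 0.45 in N530 (n = 28), -0.07 in E12.5 set C (n = 20), 0.52 in N523 (n = 8) and -0.06 at P1 (n = 41). Cells of a set still differ in depth, and H19 counts are sparse at P1.

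**Figure D2:**
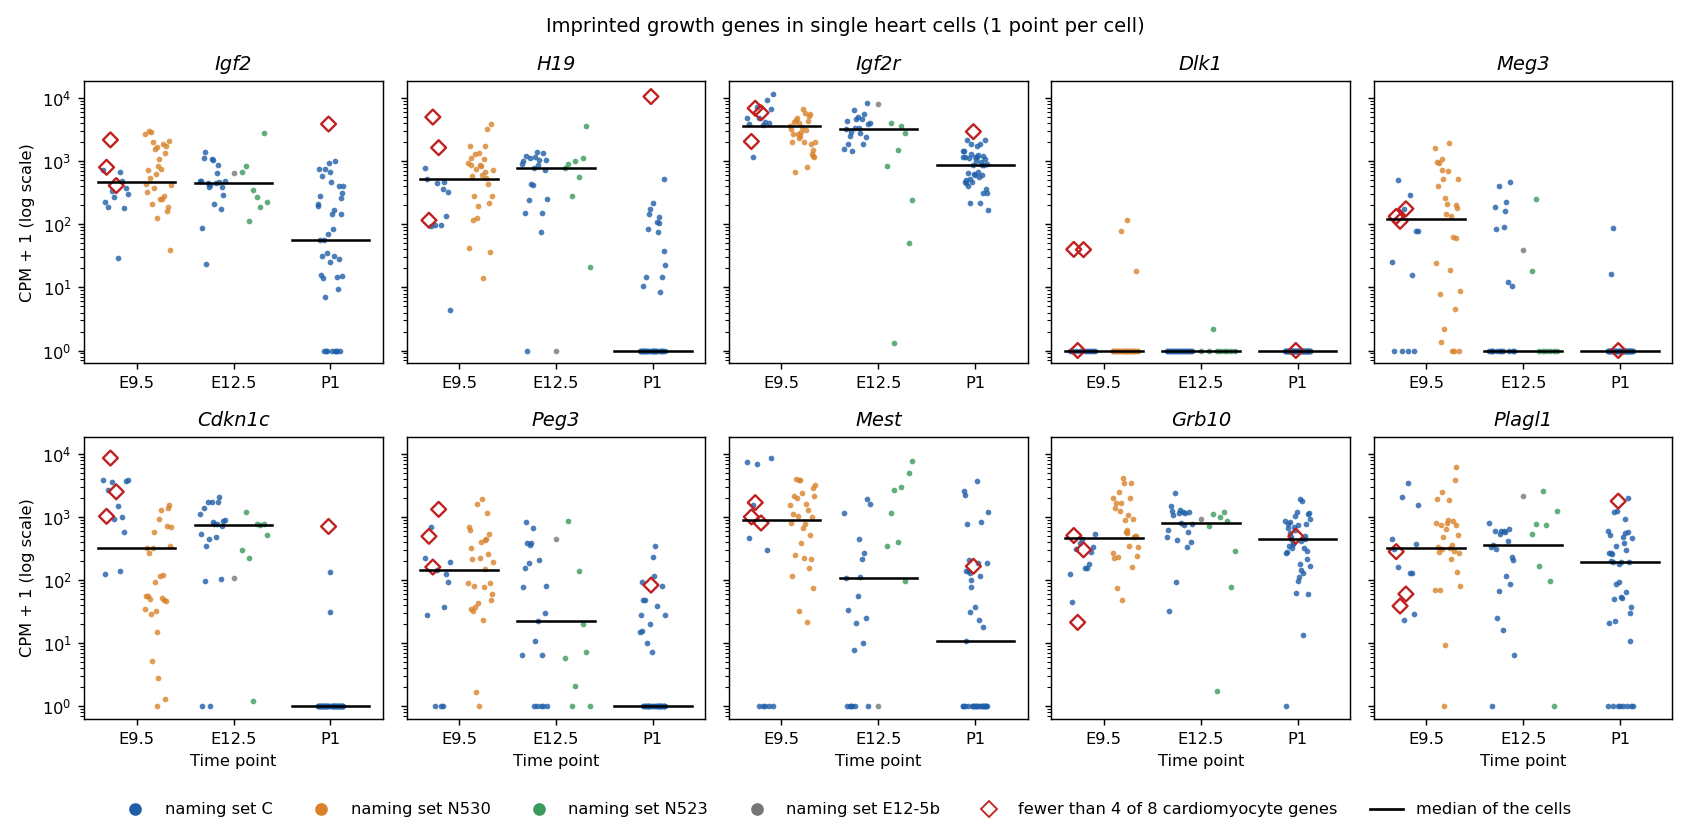
CPM + 1 (log scale) of each member in each kept cell at E9.5, E12.5 and P1, 1 point per cell, coloured by naming set. Black lines are medians over the cells, and open diamonds are the 4 cells lacking CM genes. At P1 the H19 median lies at 0 CPM with a single diamond at 10629 CPM, while the Igf2r points lie between 166 and 2951 CPM.

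Igf2r, the clearance receptor for IGF2, was the one member found in every kept cell of all 3 time points. E9.5 cells ran from 669 to 11733 CPM with a median of 3653, E12.5 cells from 0.297 to 8295 with a median of 3276, and P1 cells from 166 to 2951 with a median of 881. At P1 all cells stayed above 100 CPM, while the P1 median lay below the E9.5 median. Mean CPM was 3896 ± 2347, 3295 ± 2127 and 978 ± 616. The P1 level was 3.99-fold lower than at E9.5 (log2 ratio -1.99, naming sets -2.49 to -1.66) and its log2 ratio to E12.5 was -1.75 (naming sets -1.93 to -0.73). The lowest E12.5 value came from 1 cell of set N523 with 2 counts of Igf2r and 5 of Grb10 in a total of 6728675, which expressed 7 of the 8 CM genes and held 2698 CPM of Mest.

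Grb10, the adaptor that restrains insulin and IGF1 receptor signalling, was found in 42 of 42, 29 of 29 and 40 of 41 cells (97.6% at P1, 87.1% to 99.9%). Its median was 463 CPM in E9.5 cells (20.4 to 4208), 795 CPM in E12.5 cells (0.743 to 2447) and 448 CPM in P1 cells (0 to 1948). The medians of E9.5 and P1 lay close together and the ranges overlapped throughout. Mean CPM was 848 ± 1008, 824 ± 531 and 545 ± 451. The log2 ratio of P1 was -0.64 to E9.5 and -0.60 to E12.5, near the median of all genes for the first. The naming sets of E9.5 differed, since mean Grb10 was 271 CPM in set C and 1137 CPM in N530, so that the P1 level lay above the first (log2 ratio 1.01) and below the second (-1.06). Because Igf2r was found in every kept cell, the cells with both Igf2r and Grb10 were those with Grb10 (42 of 42, 29 of 29 and 40 of 41).

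Ddc, which lies 32.4 kb from Grb10 in the same imprinted domain and encodes aromatic amino acid decarboxylase, went the other way. Its mean was 51.5 CPM at E9.5 (16 of 42 cells), 99.6 CPM at E12.5 (13 of 29 cells) and 452 CPM at P1 (23 of 41 cells). The P1 level was 8.78-fold higher than at E9.5 (log2 ratio 3.13, naming sets 2.55 to 3.55) and 4.54-fold higher than at E12.5.

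Cdkn1c, which encodes a cyclin-dependent kinase inhibitor of the Cip/Kip family and is read from the maternal copy, had counts in 41 of 42 E9.5 cells, 27 of 29 at E12.5 and 3 of 41 at P1 (7.32%, 1.54% to 19.9%). E9.5 cells reached 8642 CPM (median 326), E12.5 cells 2113 CPM (median 737) and P1 cells 710 CPM (median 0). Of the 3 P1 cells, the highest was the cell lacking CM genes, and the next had 136 CPM. Mean CPM was 1039 ± 1677, 738 ± 582 and 21.4 ± 112, the last 4.15 ± 21.9 (n = 40) without that cell. The log2 ratio was -5.60 to E9.5 and -5.11 to E12.5 (48.6-fold lower than at E9.5), and -7.60 and -7.47 without the cells lacking CM genes (194-fold lower than at E9.5), where the P1 level rests on 30 counts in 2 of 40 cells. At E9.5 the mean was 2457 CPM in set C and 331 CPM in N530, and a cell lacking CM genes held the 8642 CPM.

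The other Cip/Kip genes were followed beside it. Cdkn1b had a mean of 96.4, 140 and 53.8 CPM at the 3 time points and was found in 36 of 41 P1 cells. Cdkn1a had 14.98, 1.17 and 39.2 CPM and was found in 10 of 41 P1 cells, and 79.8% of its E9.5 sum came from 1 cell (3.10 CPM without it). The summed CPM of 12 cycling genes (Mki67, Top2a and others) had a median of 2372 in E9.5 cells, of 736 in E12.5 cells and of 0 in P1 cells. By naming set, the E9.5 cells had medians of 486 (C) and 2721 (N530) and the E12.5 cells medians of 613 (C) and 2320 (N523), so within set C the order of the embryonic time points was the opposite. Across the cells of a naming set, Spearman's rho of Cdkn1c with that sum lay between -0.32 (N530, n = 28) and 0.33 (N523, n = 8), and was -0.01 at P1 (n = 41).

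Meg3, a maternally expressed long noncoding RNA, had the lowest share at P1 after Dlk1. Counts were present in 35 of 42 E9.5 cells (83.3%), in 12 of 29 E12.5 cells (41.4%) and in 2 of 41 P1 cells (4.88%, 0.596% to 16.5%). E9.5 cells ran from 0 to 1970 CPM with a median of 122, E12.5 cells from 0 to 467 with a median of 0, and the 2 P1 cells held 15.3 and 86.3 CPM, 15 counts in all. Mean CPM was 295 ± 451, 67.5 ± 127 and 2.48 ± 13.6. The log2 ratio of P1 was -6.90 to E9.5 and -4.77 to E12.5, and the set range (-7.28 to -5.51 for E9.5) stayed far from the 2-fold line. Meg3 was the single member past 2-fold between E9.5 and E12.5 (log2 ratio -2.13), 1 of 9 where 28.4% of all genes were lower. In set C alone that ratio was -0.45.

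Dlk1, the paternally expressed ligand-like gene beside Meg3, was near the limit of detection. It was found in 5 of 42 E9.5 cells, with 648 counts in all and 117 CPM in the highest cell, in 1 of 29 at E12.5 with 5 counts, and in 0 of 41 at P1 (exact interval up to 8.60%), where the floor of 3 counts over the pooled cells is 0.440 CPM. Of the 5 E9.5 cells, 2 were cells lacking CM genes, at 39.1 and 38.8 CPM. Its mean stayed below 10 CPM at every time point, so it took no part in the counts of members and no ratio is given. Rian, the noncoding RNA downstream of Meg3, had a mean of 59.8 CPM in E9.5 cells and 6.30 CPM in E12.5 cells, and its P1 level, from 0 counts, was at least 136-fold lower than at E9.5 against the floor.

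**Figure D3:**
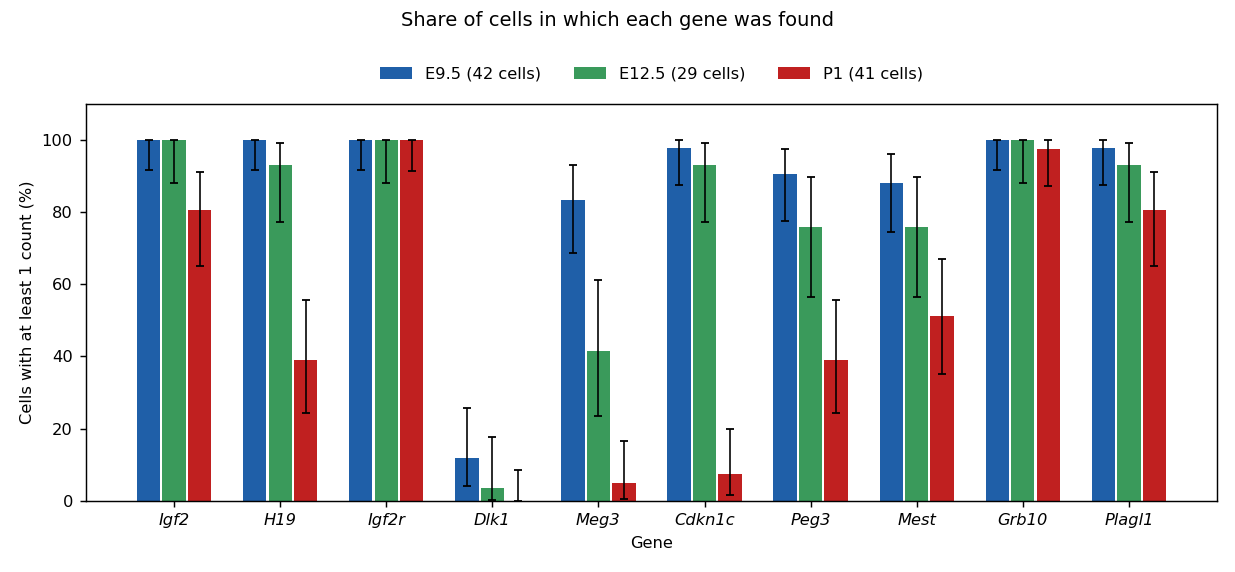
Percentage of the kept cells (42 E9.5, 29 E12.5, 41 P1) in which each member had 1 count or more. Error bars are exact 95% binomial intervals and cover counting error only, and the cells were not matched for depth. Igf2r stays at 100% and Grb10 at 97.6% or more, whereas Meg3 and Cdkn1c end at 4.88% and 7.32% at P1.

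Peg3, a paternally expressed zinc finger gene, was found in 38 of 42, 22 of 29 and 16 of 41 cells (39.02% at P1). Its cells ran up to 1966 CPM at E9.5 (median 147), up to 874 at E12.5 (median 21.2) and up to 350 at P1 (median 0), with cells at 0 at all 3 time points. Mean CPM was 318 ± 449, 170 ± 259 and 29.4 ± 67.9. The P1 level was 10.8-fold lower than at E9.5 (log2 ratio -3.44, naming sets -3.58 to -3.10) and its log2 ratio to E12.5 was -2.54, and leaving out the cells lacking CM genes gave -3.38 and -2.60. Its divergent neighbour Usp29, whose start lies 147 bases from that of Peg3, had means of 10.2, 2.92 and 0.620 CPM in order of age, the last from 4 counts in 1 cell.

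Mest, a paternally expressed gene for a member of the alpha/beta hydrolase family, varied widely between cells and naming sets. It was found in 37 of 42, 22 of 29 and 21 of 41 cells. E9.5 cells reached 8813 CPM (median 909), E12.5 cells 7841 CPM (median 108) and P1 cells 3708 CPM (median 9.71), and cells at 0 stood beside cells above 1000 CPM at each time point. Mean CPM was 1616 ± 2094, 918 ± 1775 and 317 ± 786. The log2 ratio of P1 was -2.35 to E9.5, and -1.53 to E12.5. The second depended on the naming set: mean Mest at E12.5 was 303 CPM in set C and 2570 CPM in N523, and the ratios were 0.07 and -3.02. Within sets, Spearman's rho of Peg3 with Mest across cells, given as a description, was -0.55 in N530 (n = 28), -0.53 in E12.5 set C (n = 20), -0.25 in N523 (n = 8), 0.26 in E9.5 set C (n = 14) and 0.19 at P1 (n = 41). In E12.5 set C both moved with the cell's total count (rho 0.60 for Peg3 and -0.46 for Mest), and the part of depth in that relation was not tested.

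Plagl1, an imprinted zinc finger transcription factor known as a regulator of other imprinted genes, was found in 41 of 42, 27 of 29 and 33 of 41 cells (80.5% at P1). Its cells reached 6170 CPM at E9.5 (median 327), 2616 at E12.5 (median 363) and 1979 at P1 (median 192). Mean CPM was 824 ± 1233, 515 ± 610 and 334 ± 475. The log2 ratio of P1 was -1.30 to E9.5 (naming sets -1.45 to -0.95) and -0.62 to E12.5 (naming sets -1.22 to 0.03), so Plagl1 was past 2-fold against E9.5 and within it against E12.5. The P1 cell lacking CM genes held 1794 CPM, and without the cells lacking CM genes the ratios were -1.56 and -0.79.

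Between E9.5 and E12.5 the members changed less. Apart from Meg3, the ratios of the 9 lay within 2-fold and below 0, with a median of -0.53 beside -0.17 for all genes tested. The naming sets spread widely here, for Grb10 up to 1.70 and for Mest down to -2.79 in set C. With TMM factors the ratio of every gene moved by 0.43, and the median of the members became -0.10 beside 0.26 for all genes. The direction then turned for 3 of the 9: H19 went from -0.09 to 0.34, Igf2r from -0.24 to 0.19 and Grb10 from -0.04 to 0.39.

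Compared per length, as mean deposited TPM (transcripts scaled to 1000000 per cell, a unit that takes gene length into account), Mest led at E9.5 with 1245 TPM, followed by Cdkn1c with 1118, Igf2r with 978, H19 with 698, Igf2 with 453, Grb10 with 390, Plagl1 with 358, Peg3 with 105, Meg3 with 51.6 and Dlk1 with 3.31. By median TPM Igf2r led at E9.5 (914, beside 689 for Mest and 337 for Cdkn1c). The order depended on the naming set as well, since mean Cdkn1c was 2685 TPM in set C and 335 TPM in N530. At E12.5 the means of Igf2r (694) and Cdkn1c (685) stood above Mest (556) and H19 (538), but in set C Mest had 196 TPM and in N523 it led with 1527 TPM. By median TPM Igf2r (700) and Cdkn1c (680) again stood highest at E12.5. At P1 the means of Igf2r (188), Mest (187) and Grb10 (178) lay close together. The P1 means of H19 (244) and Cdkn1c (23.2) rest on the cell lacking CM genes and were 25.7 and 3.61 TPM without it, while Peg3 had 7.84 and Meg3 0.322. By median TPM at P1, Igf2r (163) and Grb10 (139) stood above Plagl1 (57.8) and Igf2 (20.5). Neighbours in the orders by mean differed by less than the SD over cells of the higher of the pair (at E9.5, for example, 1532 TPM for Mest and 1886 for Cdkn1c).

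Counted per cell, a median of 9 of the 10 members were found in E9.5 cells, 8 in E12.5 cells and 5 in P1 cells. Over all genes the median number found per cell was 4502.5, 4189 and 2889, so fewer genes of any kind were found in P1 cells. The medians were again 9, 8 and 5 after thinning to 100000 counts, the last over 38 P1 cells. Cells with 8 or more members were 38 of 42, 18 of 29 and 1 of 41, and the 1 was the P1 cell lacking CM genes, so that 0 of the 40 other P1 cells held as many. Of the P1 cells, 36 of 41 held none of Meg3, Cdkn1c and Dlk1, against 0 of 42 at E9.5 and 2 of 29 at E12.5. These are the members with the lowest P1 shares, so this number follows from those shares and is no separate result. The cells were not thinned for it. The members found in the largest shares of P1 cells were Igf2r, Grb10, Igf2 and Plagl1.

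**Figure D4:**
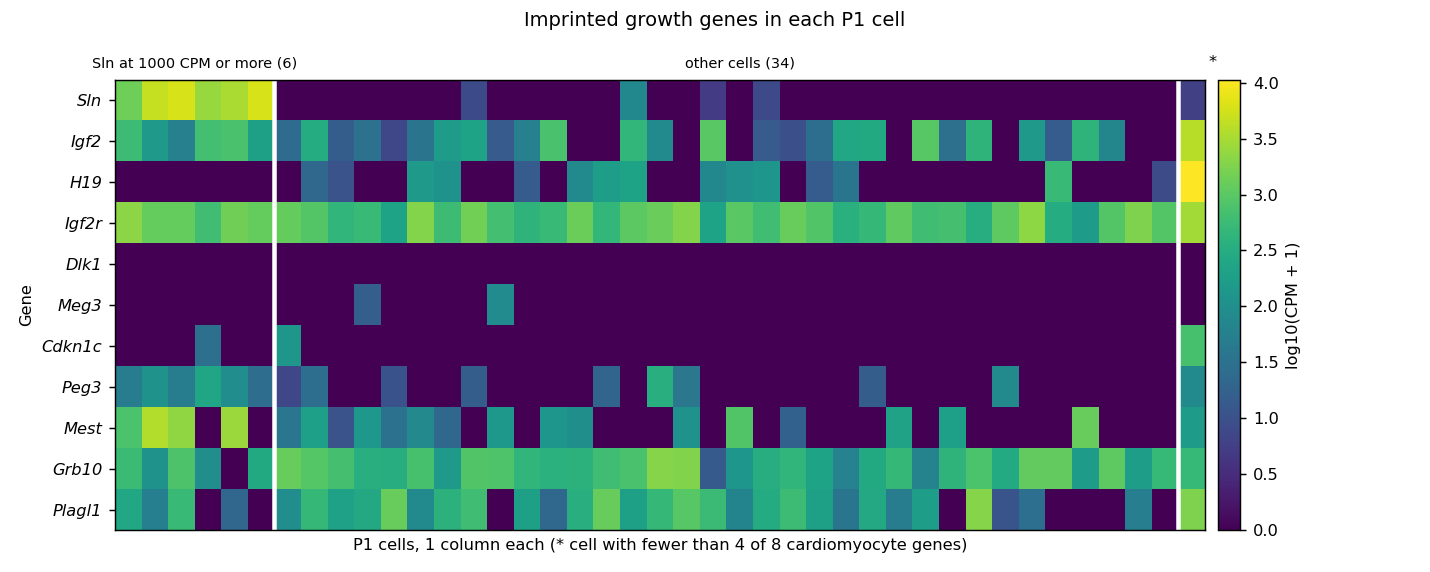
The 41 kept P1 cells (columns) and the 10 members with the atrial gene Sln (rows), coloured by log10(CPM + 1). The 6 cells with Sln at 1000 CPM or more stand left, 34 others in the middle and the cell lacking CM genes at the right end. The Sln cells hold Peg3 in 6 of 6 and H19 in 0 of 6.

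P1 cells also differed by Sln, which encodes sarcolipin and is known as an atrial gene. This split was made after the values were seen and is a description. In 6 P1 cells Sln was at 1000 CPM or more and in the 34 others that passed the CM gene check it was at 74.8 CPM or less, with similar median depth (149378 and 146708 counts). Peg3 was found in 6 of 6 of the first (exact interval from 54.1%) and 9 of 34 of the second (12.9% to 44.4%). H19 was found in 0 of 6 (up to 45.9%) and 15 of 34 (27.2% to 62.1%). Mest values in the 6 cells were 0, 0, 766, 2271, 2623 and 3708 CPM (mean 1561), against a mean of 102 in the 34. Igf2 was found in 6 of 6 with a mean of 399 CPM and in 26 of 34 with a mean of 170 CPM. Grb10 had a mean of 304 CPM in the 6 and 589 CPM in the 34.

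The P1 cell lacking CM genes (205668 counts) expressed 5 of 6 listed endothelial markers, with 6165 CPM of Emcn, 797 of Pecam1, 301 of Tek, 243 of Cdh5 and 194 of Egfl7 and with Kdr at 0. The summed level of these 6 markers was at 23.99 CPM or less in the other P1 cells. The E9.5 cell with the highest H19 and Cdkn1c likewise held 1127 CPM of Tek and 631 of Pecam1 and 0 of the 8 CM genes at 100 CPM. Across time points the endothelial sum ranged from 0 to 1898 CPM at E9.5 (6 of 6 markers found), from 0 to 13.5 at E12.5 (2 of 6) and from 0 to 7702 at P1 (5 of 6). Fibroblast markers summed to at most 4007, 534 and 112 CPM, epicardial markers to 2695, 510 and 372 CPM, smooth muscle markers to 1694, 76.8 and 399 CPM, erythroid markers to 158, 0.216 and 0 CPM, and macrophage markers to 0, 0.339 and 636 CPM, in all kept cells and with medians under 2 CPM for each list at each time point. In order of age, 5, 5 and 1 of 6 fibroblast, 2, 2 and 1 of 5 epicardial, 5, 3 and 2 of 5 smooth muscle, 3, 1 and 0 of 5 erythroid and 0, 1 and 1 of 4 macrophage markers with a row had a count, and the rest were at 0. Without the cells lacking CM genes the highest sum fell to 1246 CPM for endothelial, 405 CPM for smooth muscle and 118 CPM for erythroid markers at E9.5. At P1 it fell to 0 for fibroblast markers. It did not change for fibroblast (4007 CPM) and epicardial (2695 CPM) markers at E9.5. Nor did it change for epicardial (372 CPM), smooth muscle (399 CPM) and macrophage (636 CPM) markers at P1. Cells with these markers thus passed the CM gene check. The part of other cell types in the ratios was not tested beyond leaving out the 4 cells.

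Among 44 further imprinted genes, 43 had a row and 6 had no count in any kept cell. At 10 CPM or more at either time point, 16 of 25 were at least 2-fold lower and 4 of 25 higher at P1 than at E9.5 (all genes, 42.4% and 18.8%), with a median log2 ratio of -1.73. Without the cells lacking CM genes these were 14 of 23 and 4 of 23 (all genes, 43.1% and 18.7%). Against E12.5, 8 of 20 were lower and 3 of 20 higher (all genes, 34.3% and 19.1%), with a median of -0.63. Between E9.5 and E12.5, 13 of 24 were lower and 1 of 24 higher (all genes, 28.4% and 18.8%), with a median of -1.17, and without the cells lacking CM genes 11 of 23 and 3 of 23 (Ddc, Mcts2 and Zim1), with a median of -0.91. The higher ones at P1 were Blcap, Ddc and Kcnq1 in both comparisons and Mcts2 against E9.5, and Mcts2 was the higher one at E12.5. Kcnq1 had 10.8 CPM at P1, just above the 10 CPM limit, and 8.74 CPM without its highest cell. Kcnq1, Mcts2 and Zim1 are named here after their values were seen.

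The lower ones included genes of the paternally expressed cluster around Ndn. Ndn (necdin) stood at 175, 78.1 and 0.237 CPM in order of age, the last from 2 counts in the P1 cell lacking CM genes, and 0 of the 40 other P1 cells held a count. Peg12 had 93.9 and 30.0 CPM and then 0 counts, at least 213-fold lower than at E9.5, or at least 124-fold without the cells lacking CM genes (E9.5 mean 56.3 CPM). Zdbf2 was lower by E12.5 already, with means of 304, 17.0 and 10.5 CPM, and Asb4 stood at 285, 73.02 and 8.45 CPM. Inpp5f (152, 62.4 and 22.5 CPM), Sgce (130, 55.8 and 31.3 CPM), Slc38a4 (194, 298 and 58.5 CPM), Impact (690, 783 and 228 CPM) and Kcnq1ot1 (422, 306 and 147 CPM) were likewise at least 2-fold lower at P1 than at E9.5. Single cells weighed on these means: without the highest cell of each time point they were 127, 39.5 and 9.88 CPM for Inpp5f, 63.8, 31.1 and 20.6 CPM for Sgce and 168, 169 and 43.2 CPM for Slc38a4, each still at least 2-fold lower at P1 than at E9.5. With the highest cell left out for every gene, 13 of 22 were lower and 4 of 22 higher at P1 than at E9.5 (all genes, 42.1% and 19.9%). The higher ones were then Airn, Blcap, Ddc and Mcts2, as Kcnq1 fell below 10 CPM. Kcnq1ot1, the antisense RNA that silences Cdkn1c on the paternal chromosome, was found in 32 of 41 P1 cells where Cdkn1c was found in 3, and its reads overlap the Kcnq1 gene.

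Several others differed less between time points. Gnas (380, 374 and 356 CPM), Ppp1r9a (104, 76.4 and 92.7 CPM) and Ube3a (130, 178 and 120 CPM) lay within 2-fold of both embryonic time points at P1, and so did Cd81 (383, 710 and 598 CPM). Blcap was higher at P1, with 15.9, 5.55 and 60.6 CPM. Airn, the antisense RNA that silences Igf2r on the paternal chromosome, had 54.5, 23.9 and 25.6 CPM and was counted among the lower genes above, but 83.3% of its E9.5 sum came from 1 cell. Without the highest cell of each time point its means were 9.31, 17.3 and 20.2 CPM and the direction turned.

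**Figure D5:**
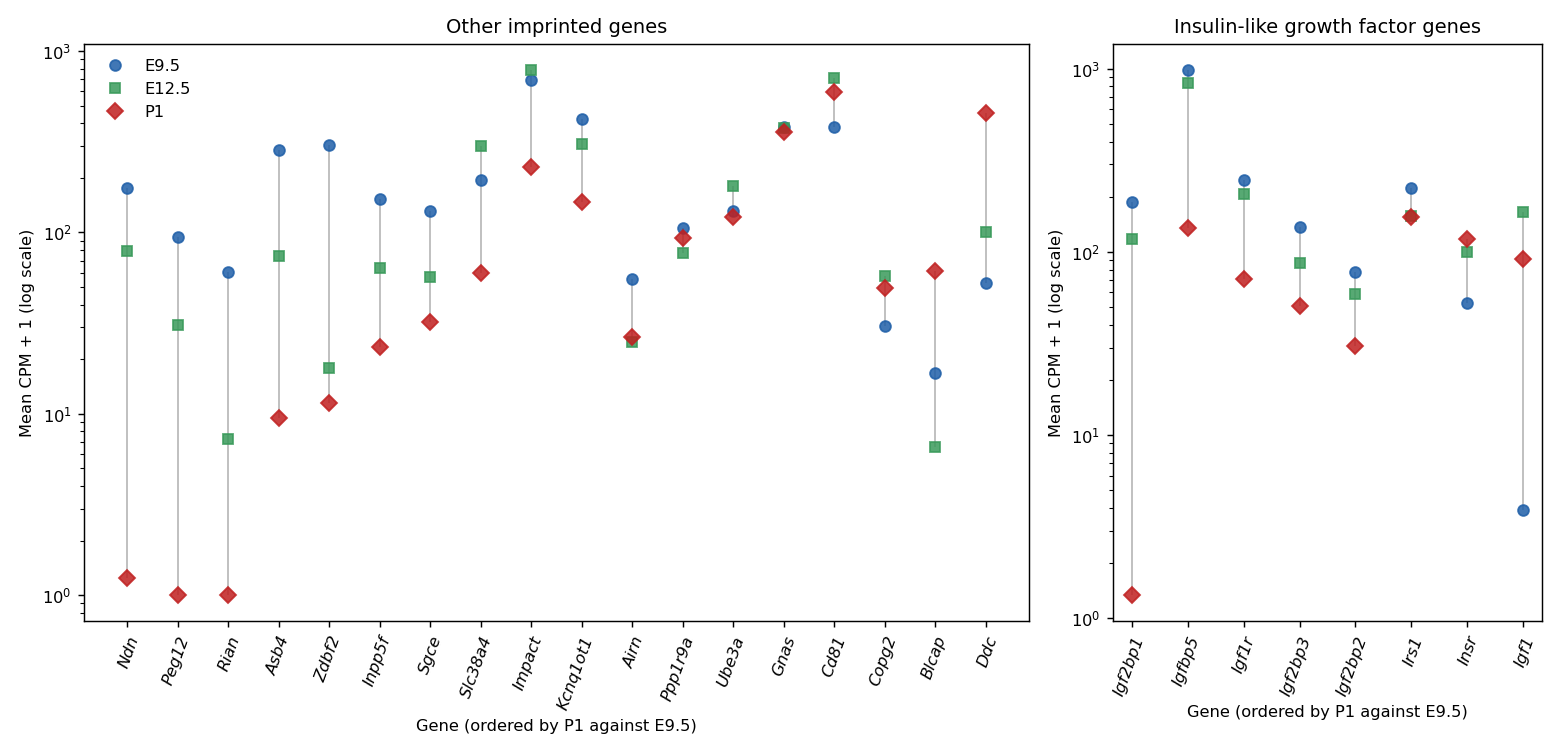
Mean CPM + 1 (log scale) at E9.5, E12.5 and P1 of the further imprinted genes (left) and the genes of insulin-like growth factor signalling (right) that reached 50 CPM at 1 time point or more, ordered by the ratio of P1 to E9.5. Ndn, Peg12 and Rian stand at 0.237, 0 and 0 CPM at P1, Gnas is level, and Ddc ends at 452 CPM.

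In the wider insulin-like growth factor pathway, 20 genes were listed. Of those at 10 CPM or more, 5 of 9 were at least 2-fold lower and 2 of 9 higher at P1 than at E9.5 (all genes, 42.4% and 18.8%). Against E12.5, 4 of 10 were lower and 1 of 10 higher at P1 (all genes, 34.3% and 19.1%). Between E9.5 and E12.5, 1 of 10 was lower (Igfbp4) and 1 of 10 higher (Igf1) at the later time (all genes, 28.4% and 18.8%). Without the cells lacking CM genes 0 of 9 were lower at E12.5, and Igfbp4 joined the genes higher at P1 than at E9.5, which makes 3 of 9. The 2 of 9 higher than at E9.5 and the 4 of 10 lower than at E12.5 lie near the shares of all genes. Against E12.5 the lower ones at P1 were Igf1r, Igfbp2, Igfbp5 and Igf2bp1 and the higher one was Igfbp4, and against E9.5 the higher ones were Igf1 and Insr. Igfbp2 and Igfbp4 are named after their values were seen. Igf1, the ligand of postnatal growth, had means of 2.88, 165 and 90.4 CPM, and was found in 3 of 42, 9 of 29 and 17 of 41 cells, with 57.2% of the E12.5 sum in 1 cell. Without the highest cell of each time point the Igf1 means were 0.0525, 72.9 and 76.0 CPM, so that P1 was level with E12.5. The receptor Igf1r stood at 245, 205 and 70.4 CPM, while the insulin receptor Insr had 51.9, 98.7 and 117 CPM. Irs1, which relays both receptors, stayed within 2-fold over all kept cells (221, 156 and 154 CPM). Over the naming sets its log2 ratio of P1 to E9.5 ran from -1.44 to 0.33.

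Igfbp5, an IGF binding protein, had means of 980, 833 and 135 CPM, and 91.7% of the P1 sum came from the cell lacking CM genes (11.5 CPM without it). Without the cells lacking CM genes its log2 ratio to E9.5 was -6.35 in place of -2.87. The genes of the Igf2 mRNA binding proteins were also at least 2-fold lower at P1 than at E9.5: Igf2bp1 had 185, 116 and 0.335 CPM (2 counts in 1 P1 cell), Igf2bp2 76.5, 58.0 and 29.7 CPM, and Igf2bp3 136, 85.6 and 49.9 CPM. Against E12.5 Igf2bp2 and Igf2bp3 lay within 2-fold (log2 ratios -0.97 and -0.78), and Igf2bp3 ran from -1.18 to 0.97 over the naming sets.

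The genes whose naming-set means most resembled a member's were taken by Pearson's r of log2(mean CPM + 1) over the 5 naming sets of 6 or more cells, among 6135 genes at 50 CPM or more in at least 1 set. For Igf2 they were Fkbp4, Fam123b and Mlec (r 0.998, 0.992 and 0.991), for H19 Sae1, Kif23 and Gnl3 (r 0.999, 0.998 and 0.998) and for Cdkn1c 2410042D21Rik, Ran and Cdv3 (r 0.999, 0.998 and 0.993). Without the cells lacking CM genes, 0 of the 3 named for Igf2, 0 of the 3 for H19 and 1 of the 3 for Cdkn1c (Cdv3) stayed among the 3 most alike. Dlk1 did not reach 50 CPM in a set. With 5 points that share libraries and differ in depth, and 6135 genes to choose from, these values describe a likeness in level and no more.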

How the data were processed

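αMHC+ single cells of aMHC-GFP mouse hearts were captured with the Fluidigm C1 system, amplified with SMART-Seq V4 reagents and made into Nextera XT libraries. The authors mapped reads with OLego and deposited raw read counts per gene from featureCounts (build GRCm38/mm10 per the submitters' processing notes). The authors also deposited TPM computed from these counts with their own scripts, and it is used here on its linear scale. Whether counting used strand, and how reads over 2 genes were treated, is not given in the sources used here.

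The 10 members, the lists and the thresholds were chosen with earlier results of these data known. Cells with fewer than 2000 genes were left out. CPM of a cell came from its own total of counts, and the level of a time point is the mean of its cells' CPM. A gene was tested in a comparison at 10 CPM or more at the higher time point and called at 2-fold, and a loss needed 4-fold against both embryonic time points. With 1 sample per time point no p-value was computed. A count of 0 was read as at most 3 counts. The exact Poisson and Clopper-Pearson intervals (95%) cover counting error only, as the reads carry no molecular identifiers. The genes named are the 10 members, those of the 2 wider lists at 50 CPM or more at a time point, the 3 genes most like Igf2, H19 and Cdkn1c, and others chosen after their values were seen (Usp29, Cdkn1a, Cdkn1b, Sln, Kcnq1, Mcts2, Zim1, Igfbp2, Igfbp4 and the endothelial markers). TMM factors came from edgeR 4.0.16 (R 4.3.3), other steps from Python 3.11.15 with pandas 2.3.3 and scipy 1.17.1. The calling step was tested on simulated Poisson counts in which the cells of a time point shared the same mean levels. That test does not cover the spread between cells or naming sets seen here.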

Additional observations from a re-analysis of the deposited data

How the results depend on the processing

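No paired analysis was possible because each time point is 1 sample and its cells are not replicates that the labels pair across time points. The members at least 2-fold lower at P1 numbered 6 to 9 of 9 or 10 (main value 8 against E9.5) and 5 to 7 (main value 7 against E12.5) over all alternatives. Those changed at least 2-fold between E9.5 and E12.5 numbered 1 in the main setting, 2 with pooled CPM, with sets N530 and N523, at a minimum of 3000 genes, without the highest cell of each gene or with no minimum level, and 3 with mean deposited TPM or with set C only. The members lost jointly at P1 were 3 in the main setting, 3 or 4 elsewhere and 5 without cells whose titles end in "no". The members' median of -1.99 for P1 against E9.5 became -2.49 with set C only, -2.60 at a minimum of 3000 genes and -2.63 without the highest cell. Their median of -1.53 for P1 against E12.5 became -1.95 at a minimum of 3000 genes and -2.03 without cells titled "no". Of the members' log2 ratios past 2-fold, the one that changed sign under an alternative was that of Mest, P1 to E12.5, at 0.067 in set C in place of -1.53. Ratios within 2-fold changed sign more often: with set C only, those of Grb10 (P1 to E9.5, 1.01 in place of -0.64) and Plagl1 (P1 to E12.5, 0.03 in place of -0.62), and between E9.5 and E12.5 those of Igf2, H19, Igf2r, Cdkn1c, Mest and Grb10 under 1 alternative or more of those run, H19 among them without the cells lacking CM genes (0.11 in place of -0.09). The cause of these shifts was not tested. Leaving out the 1 P1 cell lacking CM genes alone, chosen after the data were seen, gave 8, 7 and 4 for the counts against E9.5, against E12.5 and lost jointly. Depth limits P1: 1 cell there holds at most 327360 counts.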
